A study of Mus musculus with 12 samples.

Results

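Transcripts of 10 heat shock genes were measured in cells of a mouse Eµ-Myc lymphoma, in which an immunoglobulin enhancer drives Myc in the B lineage. The genes are the heat shock factor Hsf1 and the chaperones Hsp90aa1, Hsp90ab1, Hspa8, Hsph1, Hspa4, Dnaja1, Dnajb1, Hspd1 and Hspe1. They were chosen by symbol and matched 10 of the 56748 gene IDs in the counts, and all 10 passed the filter on low counts. The first group, called lymphatic, holds 4 libraries of lymphoma cells sorted from lymph nodes on day 11 after tumor injection, where the cells had spread through lymphatic vessels. The second, called hematogenous, holds 4 libraries of cells sorted from lymph nodes on day 18, where they had spread through the blood. The third, called culture, holds 4 libraries of the cells as grown in culture. The host mice were C57BL/6J, and all groups carry the same lymphoma line with no other allele or agent in the labels.

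Between the lymphatic and hematogenous groups both the route and the day differ, and the part of each cannot be told apart. Growth in a host likewise changes together with dissociation of the node and sorting, for which the labels give no gate, and these cannot be told apart either. For the culture group the tissue label also reads lymph node, which goes against the titles, and groups were taken from the titles. Whether each replicate is an animal or a culture of its own is not in the labels. The p-values therefore speak of spread among these samples alone, and that spread may be technical.

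Heat shock chaperones bind unfolded proteins and help them to fold, to assemble or to be degraded. Hsf1 is held inactive in unstressed cells and, when proteins unfold, forms trimers that bind heat shock elements, inverted repeats of the letters GAA and TTC, in the promoters of chaperone genes. It is regulated mostly after translation, so its transcript level is not a measure of its activity. In the cytosol, J-domain proteins such as Dnaja1 and Dnajb1 hand clients to Hsp70 (Hspa8), exchange factors of the Hsp110 family (Hsph1 and Hspa4) release them, and Hsp90 (Hsp90aa1 and Hsp90ab1) acts on late folding steps of kinases and receptors. Hspd1 (Hsp60) and its lid Hspe1 (Hsp10) form the folding chamber of the mitochondrial matrix. Lymphoma cells with high Myc make much protein and are known for their demand for chaperones.

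Promoter windows of 6 of the 10 genes were in the RefSeq table of build GRCm38.p6, each read over the 250 bases before a transcription start. They are shown because the heat shock element is the letter pattern that these genes are known to share. An inverted pair of element units, GAANNTTC or TTCNNGAA on either strand, was in 5 of the 11 windows of these genes, which belong to 4 of the 6. Those of Hspd1 and Hspe1 share 1 stretch, and the 2 of Hsph1 overlap. The same pair was in 12.8% of all 32851 windows of that length, and 3 alternating units in a row were in 0.466% of them. The capitals mark the element units in each 30-base stretch, written 5′ to 3′ on the strand of the gene.
Hspd1, chr1:55088053-55088082, minus strand: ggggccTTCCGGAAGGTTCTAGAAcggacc
Hspe1, chr1:55088053-55088082, plus strand: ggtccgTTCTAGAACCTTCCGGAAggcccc
Dnaja1, chr4:40722333-40722362, plus strand: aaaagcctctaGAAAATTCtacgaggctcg
Hsph1, chr5:149636351-149636380, minus strand: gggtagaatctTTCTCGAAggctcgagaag

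The Hspd1 and Hspe1 stretches are the same bases read on opposite strands, since these genes lie head to head, with 215 bases between the Hspe1 start and the Hspd1 start whose window holds the element. They hold 3 overlapping pairs, which begin 144, 139 and 134 bases before that Hspd1 start and 89, 84 and 79 bases before the Hspe1 start. The Dnaja1 pair begins 124 bases before 1 of its 3 starts, and the Hsph1 pair begins 33 and 54 bases before its 2 starts. In the windows of Dnajb1 and Hspa4 these letters were not found. Hsf1, Hsp90aa1, Hsp90ab1 and Hspa8 were not in the table. A match describes letters and is no evidence of binding.

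Counts assigned to genes ran from 5286775 to 25302016 per library, and values below are CPM, the counts of a gene relative to the library's TMM-scaled total. Summed B cell markers (9 genes, none at 0 in any group) ran from 5707 to 6675 CPM in lymphatic, from 7211 to 7785 CPM in hematogenous and from 5605 to 5948 CPM in culture libraries, so markers of the labelled cell type were present. Summed markers of T cells (10 genes) ran from 19.3 to 81.9 CPM in lymphatic, from 5.53 to 14.5 CPM in hematogenous and from 0 to 0.621 CPM in culture libraries. In culture 6 of the 10 were at 0, among them Cd3d, Cd4 and Cd8a. Those of macrophages and monocytes (9 genes) ran from 35 to 89.1, from 28.1 to 33.6 and from 12.7 to 17.5 CPM in lymphatic, hematogenous and culture libraries, with 5 of 9 at 0 in culture, among them Lyz2 and C1qa. Summed markers of stroma and endothelium (8 genes) ran from 80.1 to 114.5 CPM in lymphatic, from 139 to 167 CPM in hematogenous and from 75.6 to 80.6 CPM in culture libraries, with Pdpn and Ccl21a at 0 in every group. Those of erythroid cells (6 genes) ran from 2.30 to 15.1, from 3.11 to 6.35 and from 11.3 to 29.8 CPM in lymphatic, hematogenous and culture libraries. Library lymphatic 4 stood apart: genes of ribosomal proteins took 16% of its counts, against 7.61% to 9.87% in the others, and it had the highest T cell sum. Summed immediate early genes (15 genes), which rise within minutes of stimulation and of tissue handling, ran from 394 to 612 CPM in lymphatic, from 310 to 363 CPM in hematogenous and from 399 to 434 CPM in culture libraries. Culture libraries too had counts of the macrophage, stroma and erythroid markers, so those sums cannot be read as host transcripts alone. By edgeR, Csf1r was lower in lymphatic and hematogenous than in culture cells (log2 −1.19 and −2.45), while 5 and 4 macrophage markers were higher. Of the erythroid markers Hbb-bs was higher (log2 5.60 and 4.44) and Hbb-bt lower (log2 −2.96 and −3.24) in the same comparisons. The part of host transcripts, of handling genes and of lymphatic 4 in the results was not tested, except where values without lymphatic 4 are given.

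Summed, the 10 transcripts were most abundant in cells that had reached lymph nodes through lymphatic vessels. This did not hold for each gene, since Hsp90ab1 was highest in hematogenous libraries and Hsf1 and Hspa4 overlapped between groups. For Dnajb1 the lymphatic libraries (60.8 to 87.0 CPM) overlapped with the culture libraries (58.9 to 66.1 CPM). The 10 transcripts summed to 13730 ± 1253 CPM in lymphatic, 10630 ± 328 CPM in hematogenous and 10310 ± 447 CPM in culture libraries (SD, n = 4 each), and the lymphatic libraries (lowest 12480 CPM) lay above all 8 others (highest 11090 CPM). As a share of all assigned counts this was 1.2% to 1.54%, 1.04% to 1.13% and 1.00% to 1.10% in the lymphatic, hematogenous and culture libraries. In bulk RNA, fewer cells of a type and less RNA per cell cannot be told apart.

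Per kilobase of transcript, the order of the transcripts was nearly the same in every group, with Hsp90ab1 first, Hspa8 next and Hspd1 after it. Hsp90ab1 had 1828, 2063 and 1652 CPM per kb in lymphatic, hematogenous and culture cells, and Hspa8 had 1483, 917 and 1012 CPM per kb. Their libraries overlapped in the lymphatic group and did not in the other groups. The Hspd1 level was 732, 414 and 532 CPM per kb in the same order of groups, and its libraries overlapped with those of Hspe1 in the lymphatic group. Hspe1, at 581, 253 and 319 CPM per kb, and Hsp90aa1, at 527, 291 and 268 CPM per kb, came next. Hspe1 came before Hsp90aa1 except in hematogenous cells, and the libraries of the pair overlapped in both lymph node groups. Hspa4 followed at 150, 135 and 140 CPM per kb and Hsph1 at 124, 44.8 and 81.0 CPM per kb, overlapping in lymphatic libraries only. The lowest levels were those of Dnaja1 (59.7, 31.2 and 41.3 CPM per kb), Hsf1 (27.2, 28.0 and 28.2 CPM per kb) and Dnajb1 (23.9, 17.8 and 20.9 CPM per kb). Dnajb1 overlapped with Hsf1 in the lymphatic group, and Hsf1 with Dnaja1 in the hematogenous group.

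**Figure D1:**
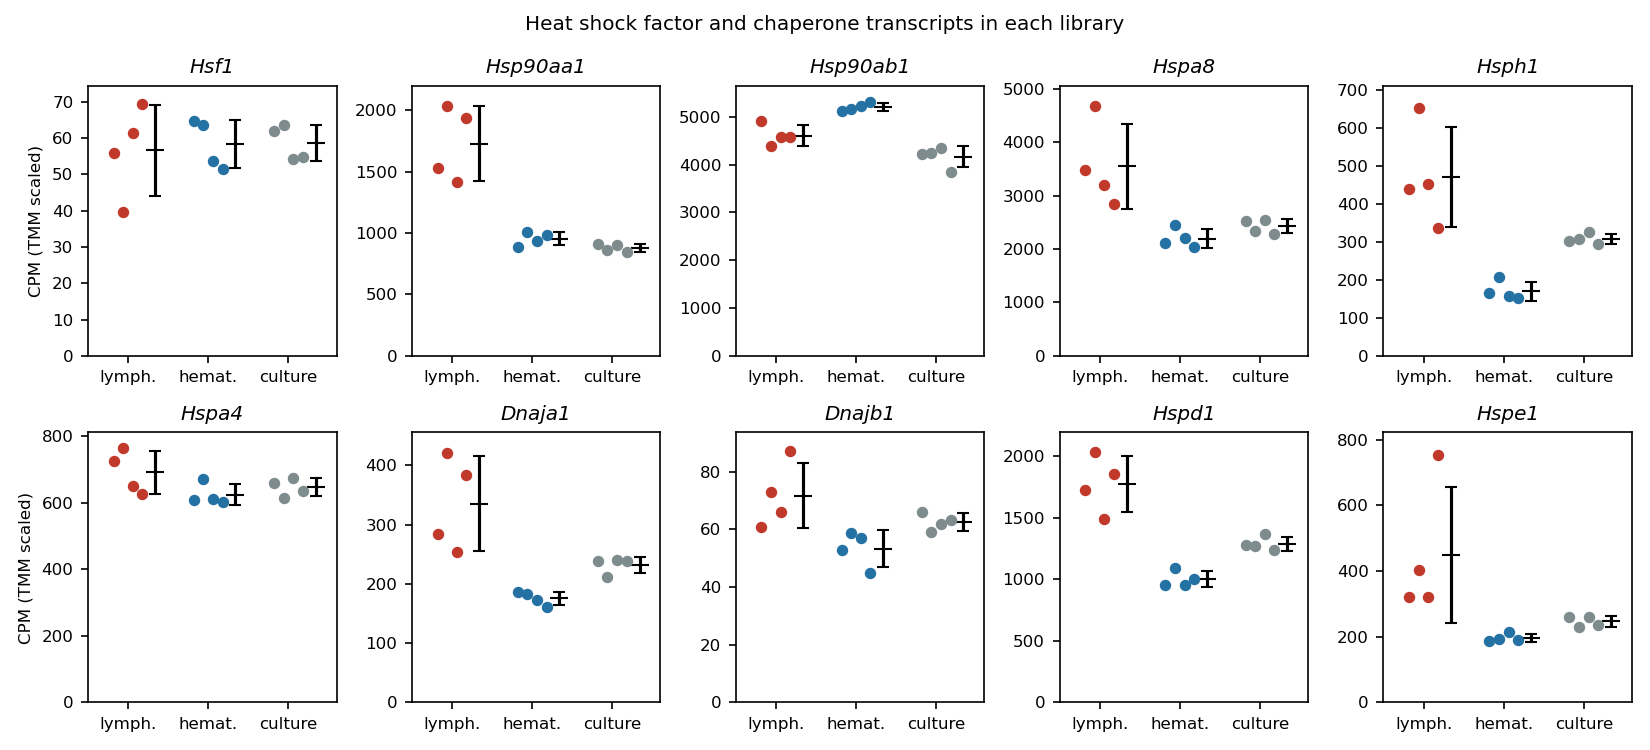
CPM of each heat shock gene in each library (points, in replicate order from left to right), with the mean and SD of the 4 libraries of a group as a bar beside them, on linear axes that start at 0 and differ between panels. The lymphatic libraries of Hsp90aa1 sit between 1412 and 2033 CPM, above all others, while those of Hsf1 span the range of the other groups.

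Hsf1, the transcription factor of the heat shock response, did not pass the test in any comparison. It had 56.0, 39.6, 61.5 and 69.3 CPM in lymphatic libraries 1 to 4, against 64.8, 63.5, 53.8 and 51.6 CPM in hematogenous and 62.1, 63.6, 54.2 and 54.7 CPM in culture libraries. The groups overlapped, and lymphatic 2 and 4 were the lowest and the highest of all libraries. Its log2 fold change from culture was −0.05 in lymphatic cells (95% interval −0.40 to 0.30, edgeR adjusted p = 0.84) and −0.0030 in hematogenous cells (−0.36 to 0.35, adjusted p = 0.992). Between the routes it was −0.05 (−0.40 to 0.30, adjusted p = 0.853). Of the related genes Hsf2, Hsf4, Hsf5 and Hsbp1 (the Hsf1 binding protein), 2 passed the filter. The edgeR fit of all 12 libraries called 0 of them in any comparison. At an unadjusted p under 0.05, 1 was lower in hematogenous than in culture cells and 1 higher in lymphatic than in hematogenous cells. DESeq2 called 1 of them, lower in hematogenous than in culture cells, and limma-voom called 0. Over the 18 alternatives for hematogenous against culture cells, 0 to 2 were called lower.

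Of the cytosolic Hsp90 genes, Hsp90aa1 passed the test in both lymphatic comparisons and Hsp90ab1 in that of hematogenous with culture. Hsp90aa1, which encodes the stress-inducible cytosolic Hsp90, had 1531, 2033, 1412 and 1937 CPM in lymphatic libraries 1 to 4. It had 884.5, 1008, 938.7 and 983.5 CPM in hematogenous and 908, 862.6, 905.2 and 842.3 CPM in culture libraries. Every lymphatic library was above all 8 others, and the hematogenous and culture libraries overlapped. It was 1.97-fold higher in lymphatic than in culture cells (log2 0.97 ± 0.123 SE, edgeR adjusted p = 6.08e-05) and 1.81-fold higher than in hematogenous cells (log2 0.86 ± 0.123, adjusted p = 0.000354). Hematogenous cells gave a log2 change from culture of 0.12 (95% interval −0.16 to 0.39, adjusted p = 0.539).

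Hsp90ab1 encodes the constitutive cytosolic Hsp90. It had 4901, 4380, 4574 and 4567 CPM in lymphatic libraries, against 5113, 5162, 5216 and 5301 CPM in hematogenous and 4224, 4237, 4342 and 3853 CPM in culture libraries. No groups overlapped, and the hematogenous libraries were the highest. It was 1.25-fold higher in hematogenous than in culture cells (log2 0.32 ± 0.0929 SE, edgeR adjusted p = 0.0186), a call that did not hold without library culture 4 (log2 0.28, adjusted p = 0.0754). The lymphatic change from culture was log2 0.15 (adjusted p = 0.276), and that from hematogenous was −0.17 (adjusted p = 0.192).

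Hspa8, the constitutive cytosolic Hsp70, had 3477, 4679, 3203 and 2839 CPM in lymphatic libraries 1 to 4, against 2106, 2444, 2201 and 2031 CPM in hematogenous and 2533, 2334, 2538 and 2287 CPM in culture libraries. All lymphatic libraries lay above the others, with lymphatic 2 the highest, and the hematogenous and culture ranges overlapped. It was 1.47-fold higher in lymphatic than in culture cells (log2 0.55 ± 0.142 SE, edgeR adjusted p = 0.0109) and 1.62-fold higher than in hematogenous cells (log2 0.69 ± 0.142, adjusted p = 0.00363). Its hematogenous change from culture was log2 −0.14 (95% interval −0.46 to 0.18, adjusted p = 0.516).

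Of the exchange factors of the Hsp110 family, Hsph1 passed the test in all 3 comparisons and Hspa4 in none. Hsph1, whose transcript is induced by heat, had 439.8, 652.2, 452.9 and 337.2 CPM in lymphatic libraries, against 165.4, 207.1, 156.9 and 151.8 CPM in hematogenous and 303.4, 307.0, 326.0 and 295.2 CPM in culture libraries. No groups overlapped: lymphatic was highest, culture lay between, and hematogenous was lowest, although lymphatic 4 was only just above the highest culture library. Hsph1 was 1.53-fold higher in lymphatic than in culture cells (log2 0.61 ± 0.169 SE, edgeR adjusted p = 0.0159). It was 1.81-fold lower in hematogenous than in culture cells (log2 −0.85 ± 0.170, adjusted p = 0.00166). Between the routes it was 2.76-fold higher in lymphatic cells (log2 1.47 ± 0.172, adjusted p = 9.54e-05), the widest difference among the 10 genes.

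Hspa4 is a more constitutive relative of Hsph1. Its libraries had 725, 764, 650 and 627 CPM in the lymphatic group, against 610, 672, 613 and 602.5 CPM in the hematogenous and 661, 615, 676 and 635 CPM in the culture group. All groups overlapped. The log2 changes were 0.10 (95% interval −0.12 to 0.32) for lymphatic against culture, −0.05 (−0.27 to 0.17) for hematogenous against culture and 0.15 (−0.07 to 0.37) for lymphatic against hematogenous. Their edgeR adjusted p-values were 0.5, 0.756 and 0.29.

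Dnaja1, a J-domain partner of Hspa8, had 283.6, 420.5, 253.8 and 383.8 CPM in lymphatic libraries 1 to 4, against 185.9, 182.0, 173.1 and 160.2 CPM in hematogenous and 238.9, 211.5, 239.6 and 238.5 CPM in culture libraries. The groups did not overlap in any comparison, and lymphatic 2 and 4 were well above lymphatic 1 and 3. Dnaja1 was 1.45-fold higher in lymphatic than in culture cells (log2 0.53 ± 0.145 SE, edgeR adjusted p = 0.0153). That call was lost without library culture 2 (log2 0.49, adjusted p = 0.0543) and in the fit of only the groups compared (log2 0.52, adjusted p = 0.0501). Against hematogenous cells it was 1.91-fold higher (log2 0.94 ± 0.146, adjusted p = 0.00064). For hematogenous against culture its log2 change was −0.40 ± 0.146, which did not pass the test (adjusted p = 0.053). DESeq2 called it lower (log2 −0.40, adjusted p = 0.0392), and so did edgeR in the fit of only the groups compared (log2 −0.40, adjusted p = 8.37e-05). limma-voom did not (adjusted p = 0.0614).

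Dnajb1, the J-domain protein that is strongly induced by heat and works with Hsp70 on aggregates, passed the test in 1 of the 3 comparisons. It had 60.8, 72.8, 66.1 and 87.0 CPM in lymphatic libraries, against 52.8, 58.9, 56.9 and 44.7 CPM in hematogenous and 66.1, 58.9, 61.8 and 63.3 CPM in culture libraries. Lymphatic and culture libraries overlapped, and the lymphatic libraries all lay above the hematogenous ones by a narrow margin. Dnajb1 was 1.34-fold higher in lymphatic than in hematogenous cells (log2 0.42 ± 0.128 SE, edgeR adjusted p = 0.0292). That call did not hold without hematogenous 1, hematogenous 3 or hematogenous 4 (highest adjusted p = 0.0906). It was also lost in the edgeR fit of only the groups compared (adjusted p = 0.0819). Without a filter on low counts the adjusted p was 0.0753, and with the replicate number as a block it was 0.073. Against culture the log2 changes were 0.20 in lymphatic cells (adjusted p = 0.282) and −0.23 in hematogenous cells (adjusted p = 0.22).

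Both genes of the mitochondrial folding chamber had their highest levels in lymphatic libraries. Hspd1 had 1721, 2031, 1491 and 1852 CPM in lymphatic libraries 1 to 4, against 956, 1094, 956 and 1003 CPM in hematogenous and 1279, 1268, 1369 and 1237 CPM in culture libraries. No groups overlapped, with lymphatic highest and hematogenous lowest. Hspd1 was 1.38-fold higher in lymphatic than in culture cells (log2 0.46 ± 0.11 SE, edgeR adjusted p = 0.00697) and 1.77-fold higher than in hematogenous cells (log2 0.82 ± 0.11, adjusted p = 0.00022). It was 1.29-fold lower in hematogenous than in culture cells (log2 −0.36 ± 0.11, adjusted p = 0.0234), a call that was lost without culture 1, culture 3, hematogenous 1, hematogenous 3 or hematogenous 4 (highest adjusted p = 0.0717). The processed pseudogene Hspd1-ps3 took 12378, 4275 and 4849 counts in the lymphatic, hematogenous and culture groups, against 128484, 40045 and 47326 for Hspd1, so reads of the pair may be split.

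Hspe1 had 321.6, 402.6, 319.9 and 753.9 CPM in lymphatic libraries, against 185.5, 193.1, 213.9 and 191.1 CPM in hematogenous and 260.6, 228.3, 260.8 and 236.8 CPM in culture libraries. All lymphatic libraries were above all others and all hematogenous libraries were below all culture libraries. Lymphatic 4, the library with the high ribosomal protein share, was far above the rest. Hspe1 was 1.82-fold higher in lymphatic than in culture cells (log2 0.87 ± 0.223 SE, edgeR adjusted p = 0.0109), and without lymphatic 4 the log2 change was 0.49 (adjusted p = 0.000555). Against hematogenous cells it was 2.30-fold higher (log2 1.2 ± 0.224, adjusted p = 0.00211), with a log2 change of 0.82 without lymphatic 4. Hematogenous against culture, the log2 change was −0.33 ± 0.222 (adjusted p = 0.307) when all 12 libraries shared a spread. It was called lower in the fit of only the groups compared (−0.33 ± 0.0675, adjusted p = 0.000547) and without lymphatic 4 and culture 4 together (−0.35 ± 0.0954, adjusted p = 0.00906). In the fit without lymphatic 4, which was added after the data were seen, it was −0.33 ± 0.0850 (adjusted p = 0.00489).

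**Figure D2:**
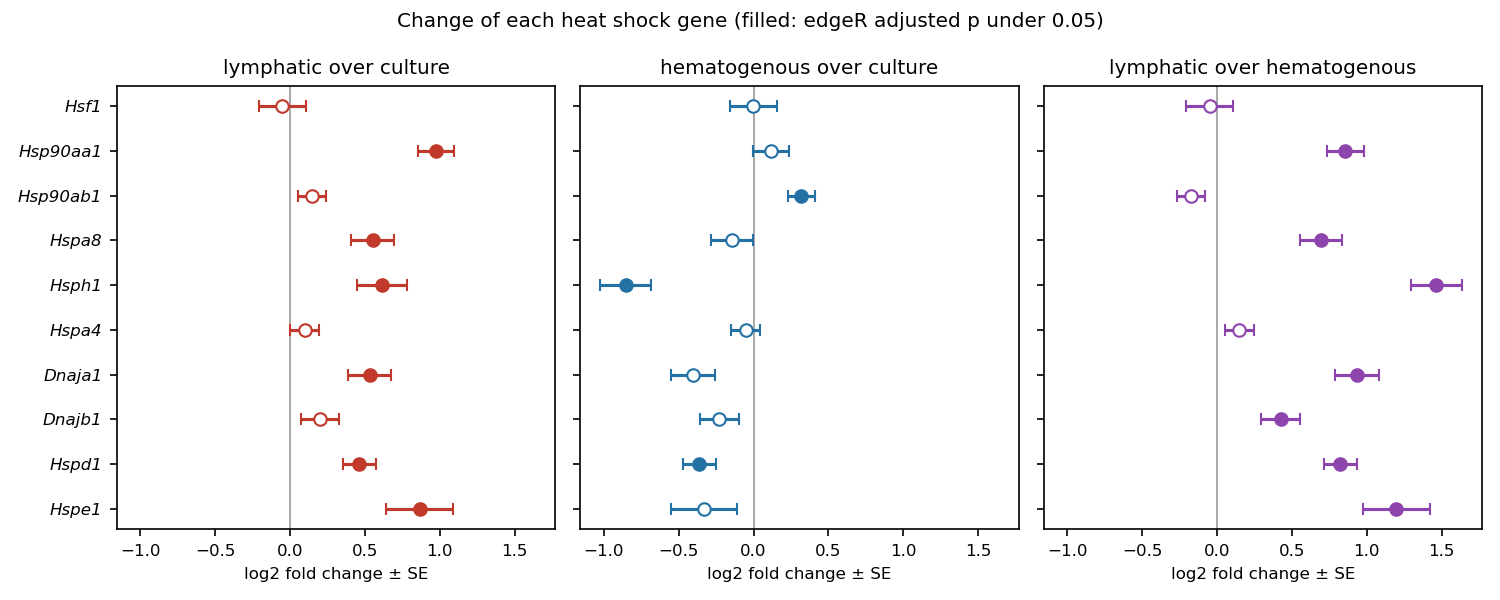
Log2 fold change ± SE of each heat shock gene in each comparison, from the edgeR fit of all 12 libraries, where filled points have an adjusted p under 0.05. In the lymphatic comparisons the filled points lie right of 0, and in the hematogenous comparison with culture Hsp90ab1 lies right of 0 while Hsph1 and Hspd1 lie left of it.

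Counted together, 6 of the 10 transcripts rose in lymphatic against culture cells (Hsp90aa1, Hspe1, Hsph1, Hspa8, Dnaja1 and Hspd1), and none fell. Across all 13535 genes tested, 13.4% were called higher and 13% lower in that comparison. The median log2 change was 0.50 over the 10 genes and 0.04 over all genes. Lymphatic libraries lay wholly above culture libraries for 7 of the 10 and wholly below for none, against 14.6% and 15.5% of all genes. At an unadjusted p under 0.05, edgeR had 6 higher and 0 lower. DESeq2 and limma-voom each called 6 higher and 0 lower.

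In hematogenous against culture cells 1 transcript rose, Hsp90ab1, and 2 fell, Hsph1 and Hspd1. Of all genes 13.9% were called higher and 13.9% lower, so these counts are near the background. The median log2 change was −0.18 over the 10 genes and −0.00072 over all genes. Hematogenous libraries lay wholly above culture libraries for 1 transcript and wholly below for 5 (Hsph1, Hspd1, Hspe1, Dnaja1 and Dnajb1), against 21.8% and 21.8% of all genes. DESeq2 called 1 higher and 3 lower (Dnaja1 as well), and limma-voom called 1 higher and 2 lower. In the fit of only the groups compared 1 rose and 5 fell, those of the fit with all libraries and Hspe1, Dnaja1 and Dnajb1. That fit's share of all genes is not given here, so its counts cannot be set against the 13.9% above. Over the 18 alternatives 1580 to 3194 of all genes were called lower, against 1880 in the fit of all libraries. In the fit without lymphatic 4, 4 transcripts fell (Hspe1 and Dnaja1 as well) and 1 rose, where 21.3% of all genes were lower and 21.8% higher.

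Between the routes 7 of the 10 transcripts were higher in lymphatic than in hematogenous cells, the 6 named against culture and Dnajb1, and none was lower. In this comparison 11.4% of all genes were called higher and 10.9% lower. The median log2 difference was 0.76 over the 10 genes and 0.03 over all genes. Lymphatic libraries lay wholly above hematogenous libraries for 7 and wholly below for 1, Hsp90ab1, against 11.5% and 13.1% of all genes. With an unadjusted p under 0.05, edgeR had 7 higher and 0 lower, limma-voom called 7 and 0, and DESeq2 called 7 higher and Hsp90ab1 lower (adjusted p = 0.0367). Each group enters more than 1 of these comparisons, so their changes are not independent of each other.

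**Figure D3:**
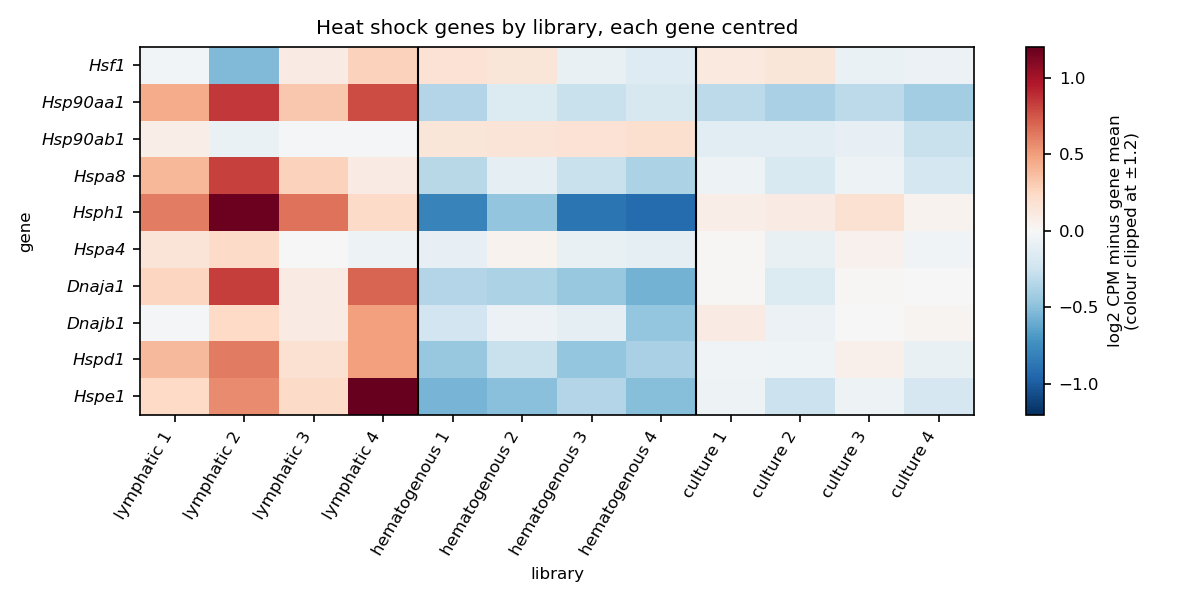
Log2 CPM of each heat shock gene (rows) in each library (columns), less the gene's mean over the 12 libraries, where red is above and blue below that mean and the colour is clipped at ±1.2. Lymphatic 2 is the reddest of its group for Hsph1, Hsp90aa1, Hspa8, Hspa4, Dnaja1 and Hspd1, and lymphatic 4 for Hsf1, Hspe1 and Dnajb1. The 4 culture columns are close to white for most genes.

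For 9 of the 10 transcripts the coefficient of variation was highest among lymphatic libraries, the exception being Hsp90ab1 (4.70% in lymphatic, 1.54% in hematogenous and 5.13% in culture libraries). In the lymphatic group it ran from 4.70% for Hsp90ab1 to 46.0% for Hspe1, against 1.54% for Hsp90ab1 to 14.8% for Hsph1 in hematogenous and 3.68% for Hsp90aa1 to 8.35% for Hsf1 in culture libraries. The share of all genes with this pattern was not counted. Over all genes, the chi-square per degree of freedom between libraries of a group ran from 12.6 to 239.9 in lymphatic pairs. It ran from 5.05 to 9.58 in hematogenous and from 4.91 to 14.3 in culture pairs. Wider spread among lymphatic libraries was thus not limited to the heat shock genes, although this measure grows with depth. Lymphatic 2 was the highest of its group for 6 genes (Hsp90aa1, Hspa8, Hsph1, Hspa4, Dnaja1 and Hspd1) and the lowest for Hsf1 and Hsp90ab1. Lymphatic 4 was the highest for Hsf1, Hspe1 and Dnajb1 and the lowest for Hspa8, Hsph1 and Hspa4. Hematogenous 2 was the highest of its group for 6 genes and hematogenous 4 the lowest for 6, and culture 3 was the highest of its group for 7.

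Ratios of raw counts within a library need no scaling factor and were taken for 3 pairs of partners. The ratio of Hsp90aa1 to Hsp90ab1 was 0.312, 0.464, 0.309 and 0.424 in lymphatic libraries, against 0.173, 0.195, 0.180 and 0.186 in hematogenous and 0.215, 0.204, 0.209 and 0.219 in culture libraries. No groups overlapped, so the inducible form made up more of the pair in lymphatic libraries than in any other library. The log2 difference was 0.81 for lymphatic against culture, −0.21 for hematogenous against culture and 1.02 for lymphatic against hematogenous. Each had an exact two-sided permutation p of 0.0286, the smallest that 4 against 4 allows. The adjusted p was 0.0514 over the 9 ratio tests, so none passed. With this floor no ratio can pass unless enough of the other tests reach it too, so the test could not decide here.

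The ratio of Hsph1 to Hspa8 separated the hematogenous group. It was 0.127, 0.139, 0.141 and 0.119 in lymphatic libraries, against 0.0785, 0.0848, 0.0713 and 0.0748 in hematogenous and 0.120, 0.132, 0.128 and 0.129 in culture libraries. Hematogenous libraries lay below all others, while lymphatic and culture libraries overlapped. The log2 differences were −0.72 for hematogenous against culture and 0.77 for lymphatic against hematogenous (exact permutation p = 0.0286 and adjusted p = 0.0514 for both), and 0.05 for lymphatic against culture (exact permutation p = 0.6, adjusted p = 0.675).

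Hspd1 and Hspe1, which share the promoter region printed above, kept a similar ratio in 11 libraries. It was 5.35, 5.04, 4.66 and 2.46 in lymphatic libraries, against 5.16, 5.67, 4.47 and 5.25 in hematogenous and 4.91, 5.55, 5.25 and 5.23 in culture libraries. Only lymphatic 4 stood outside the range of the others. The exact permutation p-values were 0.2 for lymphatic against culture, 0.743 for hematogenous against culture and 0.4 for lymphatic against hematogenous (adjusted 0.3, 0.743 and 0.514).

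**Figure D4:**
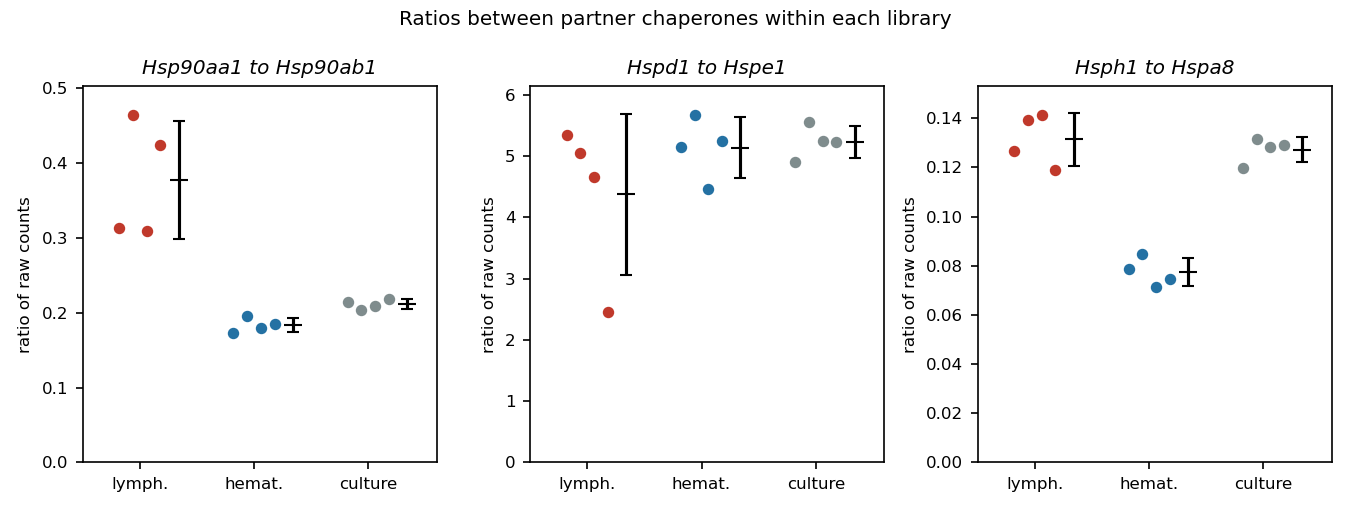
Ratio of raw counts of 3 pairs of partner chaperones in each library (points), with the mean and SD of a group as a bar beside them, on axes that start at 0. The Hsp90aa1 to Hsp90ab1 ratio averages 0.377 in lymphatic, 0.183 in hematogenous and 0.211 in culture libraries, and 1 lymphatic library has a Hspd1 to Hspe1 ratio of 2.46.

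The classical heat-inducible Hsp70 genes had few counts. Hspa1a had 48, 3 and 19 counts in all over the lymphatic, hematogenous and culture groups and did not pass the filter. Hspa1b had 111, 10 and 70 counts, a mean of 1.61 ± 0.864, 0.233 ± 0.182 and 1.86 ± 0.680 CPM (SD, n = 4 each). Its hematogenous libraries lay below all others, and its lymphatic and culture libraries overlapped. In hematogenous cells Hspa1b was lower than in culture cells (log2 −2.88 ± 0.6 SE, edgeR adjusted p = 0.00229), and in lymphatic cells it was higher than in hematogenous cells (log2 2.65 ± 0.587, adjusted p = 0.00576). The lymphatic change from culture was −0.23 (95% interval −1.24 to 0.79, adjusted p = 0.749). Hspa1a and Hspa1b are near-identical copies whose reads can be lost or split in counting, so these values are uncertain. Of the 11 inducible Hsp70 and small heat shock protein genes 5 were tested, and 0 rose or fell in lymphatic against culture cells, with 1 lower at an unadjusted p under 0.05, and 0 called by DESeq2 or limma-voom. Across all genes 13.4% rose and 13% fell there, so a count of 0 among 5 genes is near the background. Hspa2, an Hsp70 best known from germ cells, had 13.1 ± 4.54 CPM in lymphatic, 21.2 ± 3.19 CPM in hematogenous and 12.6 ± 1.69 CPM in culture cells. It rose in hematogenous against culture cells (log2 0.76, adjusted p = 0.0212) and was lower in lymphatic than in hematogenous cells (log2 −0.70, adjusted p = 0.0362).

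Among 15 cochaperones of Hsp90, 5 rose and 0 fell in lymphatic against culture cells, and 6 were higher and 1 lower in lymphatic than in hematogenous cells. Beside the 0 that fell, 1 was lower at an unadjusted p under 0.05, and DESeq2 and limma-voom each called 1 lower. Across all genes 13.4% rose and 13% fell in lymphatic against culture cells. Between the routes 11.4% of all genes were higher and 10.9% lower in lymphatic cells. Ppid, a cyclophilin that binds Hsp90, averaged 523 ± 92.3 CPM in lymphatic and 330 ± 8.34 CPM in culture cells (log2 0.67, adjusted p = 0.000905). Chordc1, which binds the ATPase domain of Hsp90, averaged 232 ± 34.2 CPM in lymphatic and 151 ± 6.31 CPM in culture cells (log2 0.61, adjusted p = 0.00135). Stip1, which links Hsp70 to Hsp90, averaged 629 ± 31.7 CPM in lymphatic and 349 ± 26.3 CPM in hematogenous cells (log2 0.85, adjusted p = 6.31e-05). Fkbp5, a glucocorticoid-induced immunophilin of Hsp90, was higher in hematogenous than in other cells, with 44.4 ± 6.79 CPM in lymphatic, 168 ± 48.8 CPM in hematogenous and 49.9 ± 2.49 CPM in culture cells. Its log2 change was 1.76 for hematogenous against culture (edgeR adjusted p = 8.55e-06) and −1.92 for lymphatic against hematogenous (adjusted p = 2.98e-05). In hematogenous against culture cells, where 13.9% of all genes rose and 13.9% fell, 1 rose, Fkbp5, and 2 fell, counts near the background. Of these Ahsa2, a relative of the Hsp90 ATPase activator Ahsa1, averaged 15.8 ± 1.71 CPM in hematogenous and 26.5 ± 1.44 CPM in culture cells (log2 −0.75, adjusted p = 0.0012).

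The cochaperones of Hsp70 showed no common direction. Of 22 tested, 2 rose and 5 fell in lymphatic against culture cells, 3 rose and 4 fell in hematogenous against culture cells, and 3 were higher and 1 lower in lymphatic than in hematogenous cells. Shares of all genes were 13.4% and 13%, 13.9% and 13.9%, and 11.4% and 10.9% in the same order. Most of these counts are near that background. The J-domain genes Dnajb5 and Dnajb2 were lower in both lymph node groups. Dnajb5 averaged 4.19 ± 0.630 CPM in lymphatic, 2.98 ± 0.616 CPM in hematogenous and 10.8 ± 2.44 CPM in culture cells, a log2 change of −1.37 in lymphatic cells (adjusted p = 0.000395) and −1.85 in hematogenous cells (adjusted p = 3.43e-05). Dnajb2 averaged 5.26 ± 2.24, 3.11 ± 1.25 and 11.0 ± 0.862 CPM in the same order of groups, a log2 change of −1.07 (adjusted p = 0.0175) and −1.80 (adjusted p = 0.000735). Between the routes Dnajb12, a J-domain protein of the endoplasmic reticulum membrane, was lower in lymphatic cells (25.1 ± 4.12 against 37.1 ± 1.28 CPM in hematogenous cells, log2 −0.56, adjusted p = 0.0129). The ribosome-associated Dnajc2 was higher there (297 ± 79.9 against 218 ± 13.0 CPM, log2 0.45, adjusted p = 0.0497), with a log2 change of 0.26 (adjusted p = 0.0538) without lymphatic 4. Without that library 4 genes rose and 6 fell in lymphatic against culture cells. Calls of all genes in this comparison moved too, from 1225 to 2440 higher and from 1341 to 2468 lower over the 17 alternatives.

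The TRiC chaperonin, the ring that folds actin and tubulin in the cytosol, and its partner prefoldin had 14 tested genes. Of these 9 rose and 0 fell in lymphatic against culture cells, 2 rose and 0 fell in hematogenous against culture cells, and 7 were higher and 0 lower in lymphatic than in hematogenous cells. Across all genes the shares were 13.4% and 13%, 13.9% and 13.9%, and 11.4% and 10.9% in the same order. The 2 that rose in hematogenous cells are near that background. The subunit Cct6a averaged 1124 ± 258 CPM in lymphatic, 606 ± 14.2 CPM in hematogenous and 612.5 ± 22.9 CPM in culture cells, a log2 change of 0.88 against culture (edgeR adjusted p = 0.000385) and 0.89 against hematogenous (adjusted p = 0.000623). Cct8 averaged 1046 ± 160 CPM in lymphatic and 640 ± 19.0 CPM in culture cells (log2 0.71, adjusted p = 0.000676). Cct5 averaged 916 ± 39.6 CPM in hematogenous and 636 ± 35.7 CPM in culture cells (log2 0.53, adjusted p = 0.00323). The prefoldin subunit Pfdn5 had 127 ± 12.0 CPM in hematogenous and 85.9 ± 6.60 CPM in culture cells (log2 0.56, adjusted p = 0.0492). Pfdn4 had 47.2 ± 17.2 CPM in lymphatic and 29.3 ± 1.42 CPM in hematogenous cells (log2 0.69, adjusted p = 0.0314), with a log2 change of 0.40 without lymphatic 4. The count of 7 between the routes was 2 without hematogenous 1 and 4 without hematogenous 3 or hematogenous 4. None of the 14 was lower at an unadjusted p under 0.05 in any of the 3 comparisons, and DESeq2 and limma-voom called 0 lower. Over all alternatives 0 to 1 were called lower in hematogenous against culture cells, and 0 to 1 in lymphatic against hematogenous cells.

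Of 15 other mitochondrial chaperones and proteases, 2 rose and 1 fell in lymphatic against culture cells, 0 rose and 2 fell in hematogenous against culture cells, and 3 were higher and 0 lower in lymphatic than in hematogenous cells. For the counts of 0, edgeR had 0 at an unadjusted p under 0.05 as well, and DESeq2 and limma-voom called 0. Over the 18 alternatives for hematogenous against culture cells, 0 to 1 were called higher. Of all genes 13.4% rose and 13% fell in the first of these comparisons and 13.9% and 13.9% in the second. In the third 11.4% were higher and 10.9% lower. The counts against culture are near this background. Grpel1, the exchange factor of mitochondrial Hsp70, averaged 157 ± 56.6 CPM in lymphatic, 102 ± 3.69 CPM in hematogenous and 93.3 ± 6.49 CPM in culture cells. Its log2 change was 0.75 against culture (adjusted p = 0.00781) and 0.62 against hematogenous (adjusted p = 0.0267), and 0.46 and 0.33 without lymphatic 4. The matrix protease Lonp1 was lower in both lymph node groups, at 172 ± 34.4 CPM in lymphatic, 184 ± 8.63 CPM in hematogenous and 260.5 ± 8.24 CPM in culture cells (log2 −0.60 and −0.50, adjusted p = 0.00328 and 0.0091). The intermembrane space protease Htra2 averaged 79.4 ± 21.0 CPM in lymphatic, 50.2 ± 6.70 CPM in hematogenous and 87.4 ± 6.79 CPM in culture cells. It was lower in hematogenous than in culture cells (log2 −0.80, adjusted p = 0.00273) and higher in lymphatic than in hematogenous cells (log2 0.66, adjusted p = 0.0136). Without lymphatic 4, 4 of the 15 rose in lymphatic against culture cells and 5 were higher in lymphatic than in hematogenous cells. Leaving out culture or hematogenous libraries in turn brought these counts to 1 and to 1 or 2. Calls of all genes moved too over the 17 alternatives, from 1225 to 2440 higher in lymphatic against culture cells. Between the routes they ran from 910 to 2080 higher, so the shares above do not serve as background for these counts.

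Chaperones of the endoplasmic reticulum, which are under other factors than Hsf1, numbered 16. In lymphatic against culture cells 8 rose and 0 fell, in hematogenous against culture cells 1 rose and 0 fell, and 5 were higher and 0 lower in lymphatic than in hematogenous cells. For all genes these shares were 13.4% and 13%, 13.9% and 13.9%, and 11.4% and 10.9%. The 1 that rose in hematogenous cells is no more than that background. The Hsp70 of this compartment, Hspa5, averaged 1037 ± 171 CPM in lymphatic and 642 ± 98.2 CPM in hematogenous cells (log2 0.69, edgeR adjusted p = 0.00311). The disulfide isomerase Pdia4 averaged 335 ± 47.6 CPM in lymphatic, 287 ± 24.9 CPM in hematogenous and 202 ± 9.26 CPM in culture cells (log2 against culture 0.73 and 0.51, adjusted p = 0.000321 and 0.00377). Dnajb9, a J-domain partner of Hspa5, averaged 43.7 ± 9.91 CPM in lymphatic and 25.9 ± 1.81 CPM in culture cells (log2 0.75, adjusted p = 0.0052). Manf, a secreted factor of endoplasmic reticulum stress, averaged 201 ± 70.7 CPM in lymphatic and 113 ± 8.20 CPM in hematogenous cells (log2 0.83, adjusted p = 0.00728). The count of 8 against culture was 4 without culture 4 and also 4 in the fit of only the groups compared. At an unadjusted p under 0.05, 0 of the 16 were lower in any comparison, and DESeq2 and limma-voom called 0 lower. Over the 18 alternatives for hematogenous against culture cells, 0 to 1 were called lower.

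**Figure D5:**
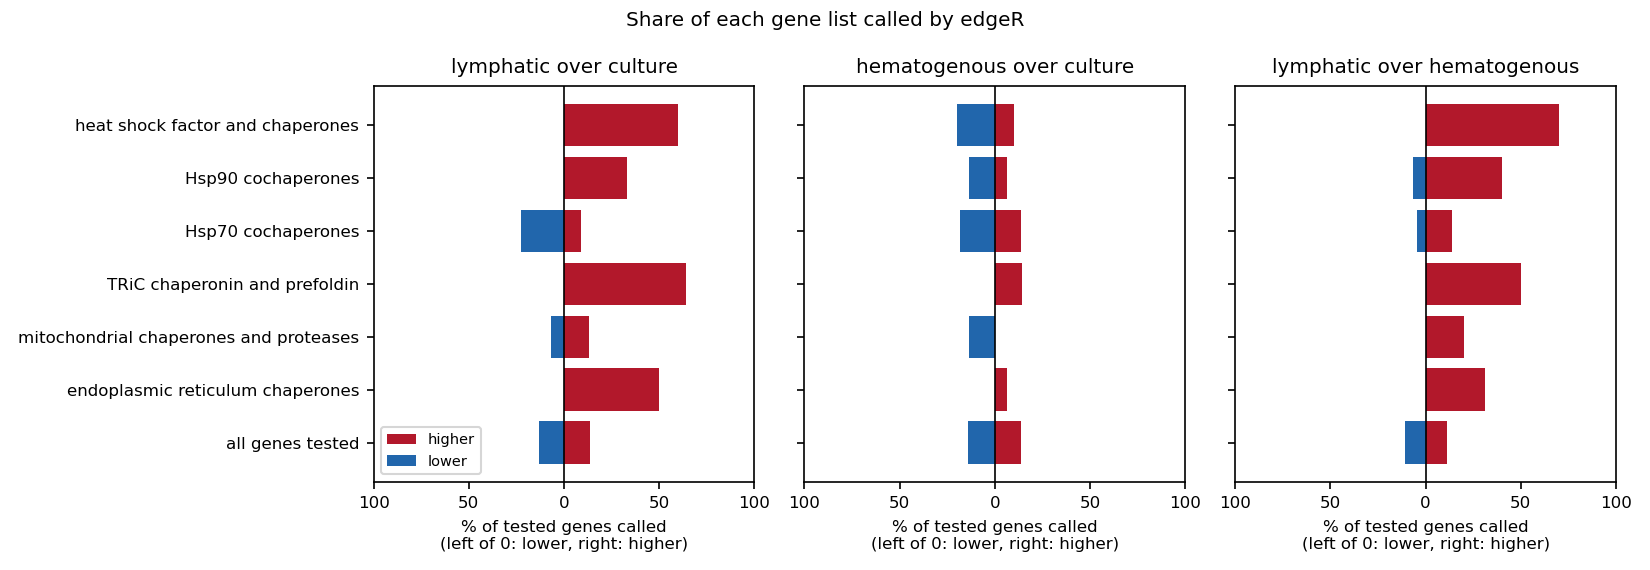
Share of tested genes called by edgeR at an adjusted p under 0.05 in each list, lower to the left of 0 and higher to the right, for each comparison, with all 13535 genes tested as the bottom row. In the lymphatic comparison with culture the heat shock genes (6 of 10) and TRiC with prefoldin (9 of 14) have long bars to the right, against 13.4% of all genes.

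Immediate early genes, listed because dissociation and sorting can induce them, had 14 tested genes. Of these 4 rose and 2 fell in lymphatic against culture cells, 3 rose and 4 fell in hematogenous against culture cells, and 7 were higher (4 without hematogenous 1) and 1 lower in lymphatic than in hematogenous cells. Among all genes the shares were 13.4% and 13%, 13.9% and 13.9%, and 11.4% and 10.9% in the same order. Fosb, an AP-1 subunit, averaged 150 ± 65.5 CPM in lymphatic, 58.5 ± 21.7 CPM in hematogenous and 7.14 ± 1.27 CPM in culture cells. Its log2 change from culture was 4.41 in lymphatic cells (adjusted p = 1.39e-06) and 3.04 in hematogenous cells (adjusted p = 1.83e-05), and the log2 difference of lymphatic from hematogenous was 1.37 (adjusted p = 0.00707). Klf2, a factor of lymphocyte quiescence and trafficking, averaged 24.1 ± 14.4 CPM in lymphatic, 37.4 ± 3.94 CPM in hematogenous and 3.01 ± 0.750 CPM in culture cells (log2 2.97 and 3.61 against culture, adjusted p = 5.51e-05 and 6.9e-06). Jun averaged 18.5 ± 4.88 CPM in lymphatic and 7.69 ± 4.85 CPM in hematogenous cells (log2 1.24, adjusted p = 0.0158). Of the heat shock genes 7 were higher between the same routes, and the part of handling in them was not tested.

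Likeness of pattern was measured by the root mean square difference of log2 CPM over the 12 libraries, each gene centred on its mean, among 8649 tested genes with a mean CPM of 10 or more. For Hsp90aa1, whose own root mean square was 0.449, the nearest genes were the TRiC subunit Cct6a (0.103), Ppa1 (0.128), Txnl4a (0.131), Cdk5r1 (0.134) and Hmgb1 (0.136). For Hspa8 (own 0.334) they were Noc3l (0.0780), Uspl1 (0.0987), Ppat (0.0991), Rnf4 (0.105) and Utp4 (0.107). Hspd1 (own 0.351) was nearest to Dimt1 (0.0685), Dars (0.0837), Tmed2 (0.0860), Pum3 (0.0865) and Psmc2 (0.0911). Among the 10 heat shock genes, Dnaja1 was nearest to Hspd1 (0.125, place 19), and Hspd1 was nearest to Hspa8 (0.165, place 39) and to Hsp90aa1 (0.240, place 134). The distances share the libraries' depth and scaling and are a description.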

How the data were processed

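Poly(A) RNA of 12 libraries, 4 per group, was sequenced as stranded single-end reads, per the labels' protocols. Reads were processed with FastQC 0.11.9, Trimmomatic 0.39, HISAT2 2.1.0 and HTSeq 2.0.2 on GRCm39, per the submitters' processing notes. Each deposited file gives 1 library's raw read counts by Ensembl gene ID, which the authors had not normalized. Reads that HTSeq assigned to no gene, in 5 lines at the end of each file, made up 30.3% to 36.5% of a library and did not enter library sizes. Symbols, found for 91.6% of IDs, and transcript lengths (longest APPRIS principal transcript) came from GENCODE M21, an annotation of the older build GRCm38, so counts have no positions here.

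The quasi-likelihood F test of edgeR 4.0.16 (R 4.3.3) was run on the counts over all 12 libraries on group (TMM factors, common dispersion 0.0457, 9 residual degrees of freedom) after filterByExpr left 13535 genes. A call is a Benjamini-Hochberg adjusted p under 0.05 over all genes, two-sided. SE and 95% intervals were derived from F and are approximate. Fits were tested on simulated data. Ratios of counts were compared on the log2 scale by exact permutation of 4 against 4 libraries, 9 tests. No 2 replicates were alike within sampling noise. Intervals cover spread between libraries, and no molecular identifiers were used.

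The members, gene lists and tests were chosen with earlier results of these data known. Named genes are the 10 members, Hspa1a and Hspa1b, in each list and comparison the 2 called genes with the largest change and a mean CPM of at least 10 in the higher group, and the 5 genes most like Hsp90aa1, Hspa8 and Hspd1. Alternatives were other scaling factors (DESeq2 size factors, upper quartile), ribosomal protein genes out of library sizes, no filter, DESeq2 1.42.0, limma-voom (limma 3.58.1), only the groups compared, the replicate number as a block, and libraries left out. Promoter letters came from RefSeq, GRCm38.p6.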

Additional observations from a re-analysis of the deposited data

Results flagged for a closer look

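For 7 transcripts the change from culture differed between the lymphatic and the hematogenous group. The edgeR test was that of lymphatic against hematogenous cells, which is the difference of these changes. By the same test 11.4% of all genes were called higher and 10.9% lower. The log2 differences were 1.465 for Hsph1, 1.198 for Hspe1, 0.9358 for Dnaja1, 0.8577 for Hsp90aa1, 0.8233 for Hspd1, 0.6931 for Hspa8 and 0.4242 for Dnajb1. Route and day cannot be told apart in them.

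In 2 of 30 groups of 4 libraries, 1 library lay far from the others, where chance flags about 1 in 20. For Hspa4, hematogenous 2 (672.2 CPM) was above the other hematogenous libraries (602.5 to 612.8 CPM), with a gap that took 0.8525 of the group's range. For Dnaja1, culture 2 (211.5 CPM) was below the other culture libraries (238.5 to 239.6 CPM), with a gap of 0.9599 of the range.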

How the results depend on the processing

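The counts of 6 higher (lymphatic against culture) and 7 higher (lymphatic against hematogenous) were 5 to 6 and 6 to 7 under the 17 alternatives of each. The count of 0 lower for lymphatic against culture did not change, and that for lymphatic against hematogenous was 1 with DESeq2 (Hsp90ab1). For hematogenous against culture, the 1 higher transcript (Hsp90ab1) became 0 without a filter on low counts and 0 with the replicate number as a block, and ran from 0 to 1 with libraries left out in turn (0 without culture 4). The 2 lower transcripts became 3 with DESeq2 and 3 with ribosomal protein genes out of the library sizes (Dnaja1 in both, adjusted p = 0.0392 and 0.0463), 1 without a filter, 5 with only the groups compared and 4 without lymphatic 4 and culture 4 together, and ran from 1 to 4 with libraries left out (4 without lymphatic 4, chosen after seeing the data). The cause was not tested. No member's log2 change past the threshold changed its sign.

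Libraries with the same replicate number had correlations of deviations from −0.181 to 0.0919, 0 of 12 pairs over 0.1, so the numbers are not taken as pairs. With the replicate block, members called higher were 6 for lymphatic against culture and 6 for lymphatic against hematogenous (Dnajb1 lost, adjusted p = 0.073), and 2 were lower for hematogenous against culture. Paired sign-flip tests of the ratios cannot go below an exact p of 0.125.

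Calls of all genes for hematogenous against culture ran from 1545 to 3150 higher and from 1580 to 3194 lower. In the lists, TRiC and prefoldin had 7 to 9 genes higher for lymphatic against culture and 2 to 9 for lymphatic against hematogenous, and endoplasmic reticulum chaperones had 4 to 10 and 4 to 7. Calls of Hspa2, Dnajc2, Pfdn5, Pfdn4, Jun and, between the routes, Grpel1, each as named in the report, were lost under at least 1 alternative. Depth limits Hspa1a and Hspa1b, which had 3 and 10 counts over the hematogenous group.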
